A study of Mus musculus with 48 samples.

Results

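Transcripts of 10 genes of the hypoxia-inducible factor (HIF) pathway were followed in bulk RNA sequencing of mouse brain: the alpha subunits Hif1a and Epas1, the oxygen sensors Egln1, Egln2 and Egln3, and the targets Vegfa, Adm, Bnip3, Pdk1 and Ankrd37. They were taken by gene symbol and are 10 of the 54532 genes measured. All mice were male wild-type C57Bl6, and their ages are not given in the labels. Mice received saline vehicle (V) or angiotensin II (A, 0.7 mg/kg per day), a peptide hormone that raises blood pressure, from an osmotic minipump for 2 weeks. Further mice on vehicle (VH) or on angiotensin II (AH) drank hydralazine, a vasodilator, at 50 mg/kg in their water. Each of these 4 treatments was sampled in the brain hemisphere and in the hippocampus with 6 libraries, giving 8 groups and 48 libraries.

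Reads in genes numbered 15.772 to 23.504 M per library in the hemisphere and 1.212 to 21.001 M in the hippocampus, where M stands for 1000000. Genes above 0 numbered 23161 to 25610 in the hemisphere and 7805 to 23044 in the hippocampus, without overlap. In the hippocampus 6 libraries listed fewer than 16000 genes above 0 (V replicates 3 and 4, VH replicates 3 and 4, A replicate 3 and AH replicate 5), against at least 18914 in the other libraries. Of these 6, VH replicate 3 had 1.212 M reads and the others 12.686 to 16.702 M, within reach of libraries that listed more genes, such as VH replicate 6 with 15.358 M reads and 21499 genes; what sets them apart was not tested. Replicate 6 of A had the lowest mitochondrial share in both regions, with 2.774% of its reads in mitochondrial genes in the hemisphere (5.697% to 7.221% in the other 23 libraries) and 5.742% in the hippocampus, where AH replicate 3 had 6.397% and the others 8.167% to 10.53%. The 8 markers of hippocampal neurons summed to 346.1 to 472.7 FPKM in the hippocampal and 88.7 to 108.1 FPKM in the hemispheric libraries, without overlap, which matches the labelled regions. FPKM are fragments per kilobase of gene per 1000000 reads, so levels can be set against each other between genes. The labels do not say that replicates are separate mice, so p-values here measure the spread between libraries. In bulk tissue, fewer cells of a type and less RNA per cell cannot be told apart.

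HIF is a transcription factor made of an oxygen-labile alpha subunit and a stable beta subunit. When oxygen is present, the prolyl hydroxylases encoded by the Egln genes mark the alpha subunit for destruction through the Vhl ubiquitin ligase; when oxygen is scarce, the alpha subunit accumulates and binds hypoxia response elements of its targets. The alpha subunits are controlled mainly as proteins, so their mRNA is not a measure of HIF activity, and it is the target transcripts that report it. Hydralazine can inhibit the prolyl hydroxylases, and the comparison of hydralazine with no hydralazine therefore asks whether the targets differ in the treated brain.

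The core letters of the hypoxia response element, ACGTG or GCGTG, were searched on both strands in the 250 bases before the RefSeq transcription starts (GRCm38.p6), where 9 of the 10 members had an entry and Epas1 had none. At least 1 match was found in 10 of 12 windows, and each of the 9 genes had one in at least 1 of its windows. For Vegfa this was only the window of its second start, which lies inside the gene. The only windows of Hif1a and Ankrd37 also lie wholly inside their annotated genes, so not every match is upstream of its gene. Of all 32851 windows of the same length, 38.6% held a match. Sequences are given for Vegfa, Egln3 and Bnip3, the 3 members with the smallest p between the regions, and Egln2, the hydroxylase that differed least. Each sequence runs 5′ to 3′ in the direction of its gene, with the matches in capitals; capitals CACGT and CACGC are matches on the other strand, and CACGTG holds a match on both strands. Vegfa is at chr17:46032378-46032627 on the minus strand, Egln3 at chr12:54203875-54204124 on the minus strand, Bnip3 at chr7:138909507-138909756 on the minus strand and Egln2 at chr7:27166803-27167052 on the minus strand.
Vegfa: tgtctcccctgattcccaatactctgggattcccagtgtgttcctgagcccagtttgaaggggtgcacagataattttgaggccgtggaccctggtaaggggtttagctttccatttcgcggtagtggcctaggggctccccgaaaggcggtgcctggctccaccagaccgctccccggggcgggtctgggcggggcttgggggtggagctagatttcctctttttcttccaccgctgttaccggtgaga
Egln3: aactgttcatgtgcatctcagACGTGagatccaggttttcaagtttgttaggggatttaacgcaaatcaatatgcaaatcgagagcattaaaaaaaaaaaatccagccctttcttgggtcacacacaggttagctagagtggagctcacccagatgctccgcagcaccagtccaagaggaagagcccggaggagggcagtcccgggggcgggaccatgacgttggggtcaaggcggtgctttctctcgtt
Bnip3: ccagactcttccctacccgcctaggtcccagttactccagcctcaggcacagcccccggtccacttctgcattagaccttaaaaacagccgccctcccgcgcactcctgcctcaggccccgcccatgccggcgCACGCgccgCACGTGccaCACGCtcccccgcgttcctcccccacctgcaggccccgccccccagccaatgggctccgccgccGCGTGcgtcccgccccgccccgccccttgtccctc
Egln2: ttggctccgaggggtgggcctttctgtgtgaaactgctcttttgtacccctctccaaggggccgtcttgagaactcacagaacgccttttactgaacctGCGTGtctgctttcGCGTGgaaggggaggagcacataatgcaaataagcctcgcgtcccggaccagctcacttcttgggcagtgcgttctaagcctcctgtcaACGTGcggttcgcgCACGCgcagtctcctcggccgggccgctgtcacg
The Vegfa window held no match, which says only that these letters are absent from this window; a second Vegfa start, further into the gene, had 2. The Egln3 window held 1 match, 229 bases before the start. Bnip3, whose window ends in a few bases of an annotated Bnip3 exon, had 5 matches between 117 and 35 bases before its start, the most of any window shown, and Egln2 had 4. A match describes letters and not binding, which was not measured.

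In the vehicle hemisphere the members spanned a wide range of levels. Egln2 was highest at 36.4 ± 4.61 FPKM (mean ± SD, n = 6 libraries here and below), followed by Bnip3 at 30.6 ± 1.16, Epas1 at 29.5 ± 1.97, Egln1 at 24.2 ± 1.02 and Vegfa at 22.0 ± 3.36 FPKM. Hif1a stood at 10.02 ± 0.616 FPKM, Pdk1 at 4.86 ± 0.889, Egln3 at 4.13 ± 0.308, Ankrd37 at 2.86 ± 0.501 and Adm, the lowest, at 1.32 ± 0.43 FPKM. Neighbours in this order whose libraries overlapped were Egln2 and Bnip3, Bnip3 and Epas1, Egln1 and Vegfa, and Pdk1 and Egln3; the other neighbours did not overlap. In the vehicle hippocampus Egln2 was again highest (32.6 ± 5.04 FPKM) and Adm lowest (0.687 ± 0.576 FPKM), while Vegfa, at 6.02 ± 0.884 FPKM, stood below Hif1a at 7.83 ± 1.89 FPKM, with overlapping libraries. All 10 members passed the filter on low values in every fit.

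**Figure D1:**
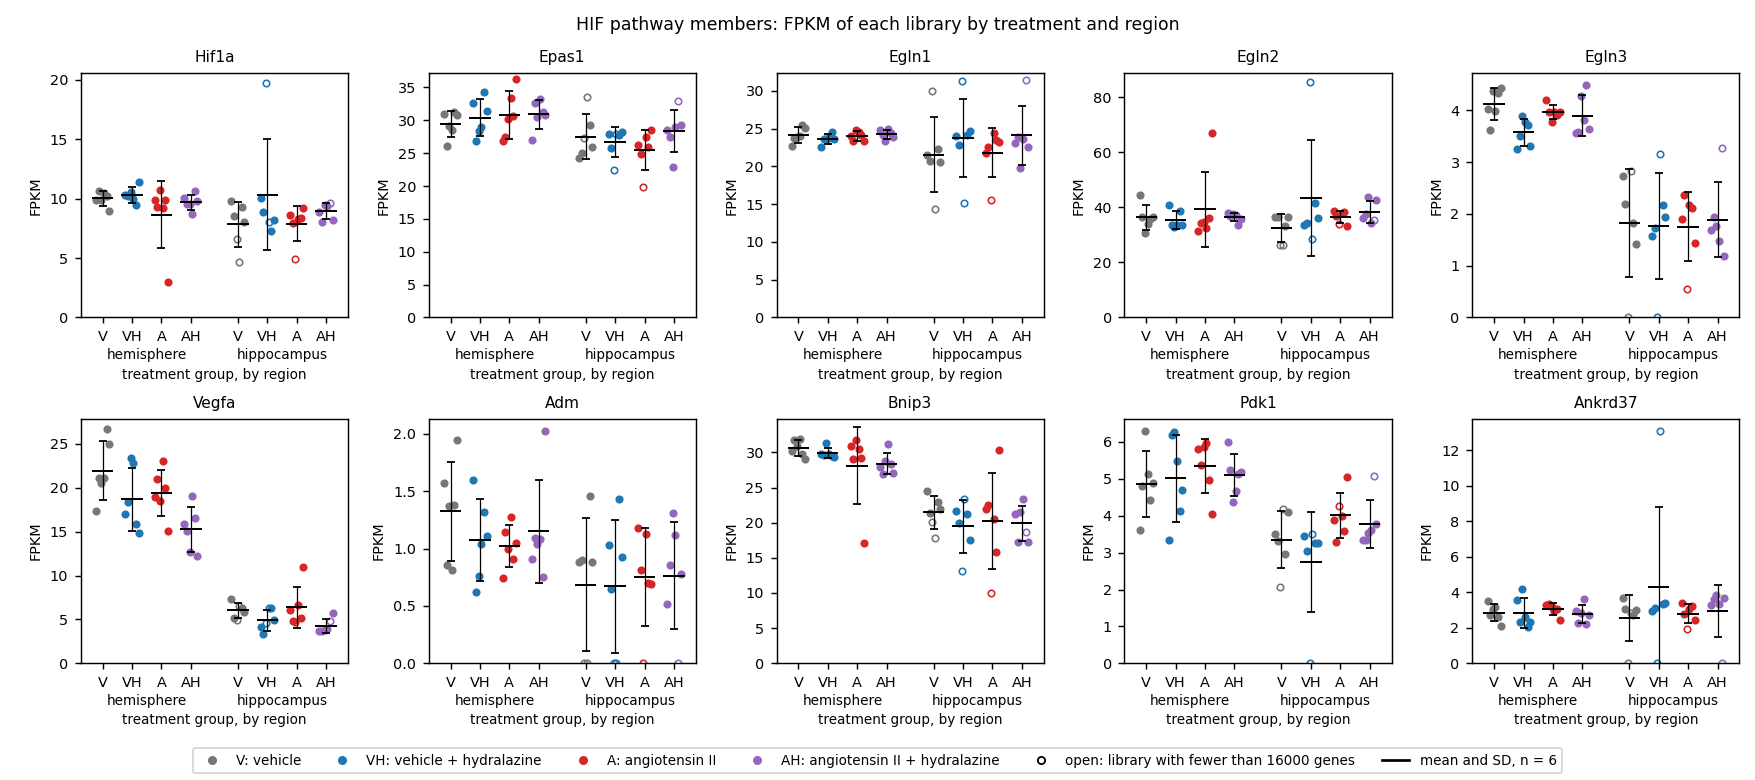
FPKM of the 10 members in each library (points), by treatment (V vehicle, VH vehicle plus hydralazine, A angiotensin II, AH both drugs) and region, with mean and SD of 6 libraries; open points are the 6 hippocampal libraries with fewer than 16000 genes. Vegfa is the member whose hippocampal libraries (highest 10.92 FPKM) all lie below its hemispheric libraries (lowest 12.25 FPKM), and several of the most distant points are open.

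No member passed the test for hydralazine in either region, and the member with the smallest unadjusted p in both, the target Vegfa, had a negative difference, with lower levels in libraries of hydralazine-treated mice. The pooled hydralazine effect is the mean of VH against V and AH against A, fitted with limma on log2(FPKM + 0.5) over all genes of a region and called at a Benjamini-Hochberg adjusted p under 0.05. In the hemisphere 0 of 10 members were called, against 0% of the 16747 genes tested, and 2 of 10 had an unadjusted p under 0.05, against 2.46% of genes. In the hippocampus 0 of 10 were called, against 0% of 15267 genes, and 1 of 10 had an unadjusted p under 0.05, against 3.56%. The members were chosen with earlier results of these data known, so these shares do not test for an excess.

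Vegfa encodes the vascular endothelial growth factor that drives vessel growth and permeability. In the hemisphere its FPKM ran from 17.34 to 26.67 (median 21.12) in V, from 14.86 to 23.34 (median 17.7) in VH, from 15.11 to 23.01 (median 19.43) in A and from 12.25 to 19.11 (median 15.48) in AH. The groups overlapped, and 10 of the 12 hydralazine libraries lay below the median of the 12 without it. The pooled log2 difference was -0.29 ± 0.09 (SE; 95% interval -0.47 to -0.10), with an unadjusted p of 0.00347 and an adjusted p of 0.992 by limma.

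Vegfa was lower in the hippocampus to begin with and showed a difference of the same sign. It ran from 4.978 to 7.313 FPKM (median 6.103) in V, from 3.336 to 6.302 (median 4.716) in VH, from 4.653 to 10.92 (median 5.633) in A and from 3.649 to 5.686 (median 3.865) in AH. Again 10 of 12 hydralazine libraries lay below the median of those without, and the groups overlapped. The pooled log2 difference was -0.39 ± 0.14 (95% interval -0.67 to -0.10; limma, unadjusted p 0.0101, adjusted p 0.873). Without the 6 libraries with few genes it was -0.49, with an adjusted p of 0.784. The hydralazine effects of the 2 regions differed by -0.10 (95% interval -0.42 to 0.22; adjusted p 0.921), and 0 of 10 members were called in that test of the difference or had an unadjusted p under 0.05, against 0% and 3.75% of genes.

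Ordered by mean, Vegfa stood at 21.96 FPKM in hemispheric V, 19.41 in A, 18.71 in VH and 15.27 in AH, then at 6.39 FPKM in hippocampal A, 6.016 in V, 4.92 in VH and 4.275 in AH. Neighbours in this order overlapped, apart from the step between the regions. The largest treatment difference was that of both drugs against vehicle: all 6 hemispheric AH libraries lay below the V median, with a log2 difference of -0.51 ± 0.13 (95% interval -0.77 to -0.26; limma, unadjusted p 0.000413, adjusted p 0.301). That comparison called 0% of genes, and 5.21% had an unadjusted p under 0.05; Vegfa was the 1 member among them. With libraries weighted by their quality the difference was -0.55 and was called, with an adjusted p of 0.0362; over the other alternatives the adjusted p ranged from 0.124 to 0.879.

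Vegfa is also made by the choroid plexus, the epithelium that secretes cerebrospinal fluid, and its RNA varied between libraries. In the hemisphere 8 choroid plexus markers summed to 481.8 to 841 FPKM in V, 376.4 to 642.9 in VH, 358.8 to 698.1 in A and 291.4 to 603.1 in AH, with medians of 635.1, 584.7, 525.9 and 445.6 FPKM. Most of each hemispheric sum was 1 marker, Ttr, such as 767.9 of 781 FPKM in V replicate 1. With these markers as a covariate the pooled Vegfa difference was -0.27 in the hemisphere and -0.39 in the hippocampus. The hippocampal sums were 10.06 to 113 FPKM in V, 9.578 to 131.8 in VH, 2.691 to 2007 in A and 7.596 to 33.36 in AH, with 3, 1, 2 and 1 of the 8 markers above 0 in every library of the group. The hippocampal library with most choroid plexus RNA, A replicate 4 (2007 FPKM), had 6.69 FPKM of Vegfa. This is 1 library, and the part of choroid plexus RNA in the regional Vegfa difference was not tested. Endothelial markers, also 8, summed in the hemisphere to 110.3 to 153.7 FPKM in V, 116.8 to 150.4 in VH, 127.9 to 149 in A and 134.9 to 158.8 in AH; their part in the Vegfa difference was not tested.

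**Figure D2:**
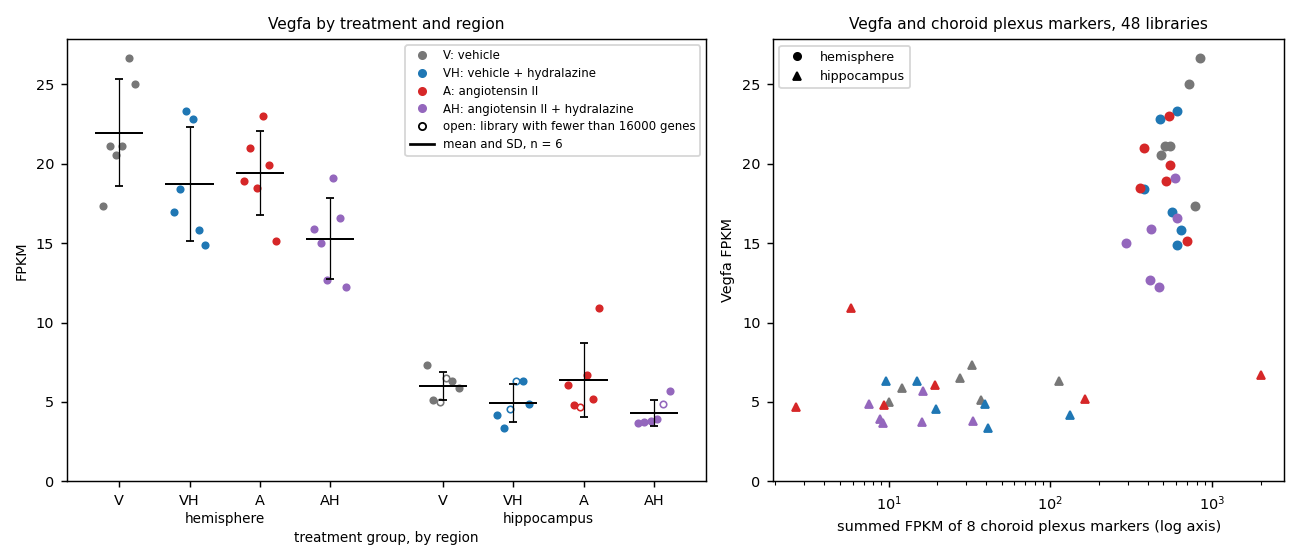
Left, Vegfa FPKM of each library by treatment and region with mean and SD of 6 libraries (open points, libraries with fewer than 16000 genes). Right, Vegfa FPKM against the summed FPKM of 8 choroid plexus markers on a log axis in 48 libraries, coloured by treatment as on the left: the hippocampal library at 2007 FPKM of markers has 6.69 FPKM of Vegfa, below the lowest hemispheric library at 12.25.

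The difference of AH from A in Vegfa was also negative in both regions, again without passing the test. In the hemisphere all 6 AH libraries lay below the A median, with a log2 difference of -0.34 ± 0.13 (95% interval -0.60 to -0.08; limma, unadjusted p 0.0119, adjusted p 0.851), and in the hippocampus 5 of 6 did, with -0.49 ± 0.20 (95% interval -0.89 to -0.09; unadjusted p 0.0199, adjusted p 1.0). Both drugs against vehicle gave -0.45 ± 0.20 in the hippocampus (95% interval -0.86 to -0.05; limma, unadjusted p 0.0289, adjusted p 1.0), with 6 of 6 AH libraries below the V median. Groups overlapped in each case. These comparisons share libraries and are not independent of one another. Vegfa was the 1 of 10 members with an unadjusted p under 0.05 in each of the 3, against 4.54%, 1.65% and 1.98% of genes, and 0% of genes were called in each. Hippocampal A replicate 6 had 10.92 FPKM of Vegfa against at most 6.69 in the rest of its group. Without it AH against A was -0.33, with an unadjusted p of 0.0752 by limma.

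Among the sensors, Egln3 was the one with a low unadjusted p under hydralazine. Egln3 encodes a prolyl hydroxylase that is itself a HIF target. Hemispheric Egln3 ran from 3.629 to 4.433 FPKM (median 4.177) in V, from 3.259 to 3.886 (median 3.607) in VH, from 3.782 to 4.194 (median 3.966) in A and from 3.567 to 4.494 (median 3.729) in AH. VH lay below V for most libraries, with overlap, while AH spread over the whole range of A. Hydralazine alone against vehicle gave -0.18 ± 0.06 (95% interval -0.31 to -0.06; limma, unadjusted p 0.00659, adjusted p 1.0), with 6 of 6 VH libraries below the V median; it was the 1 member with an unadjusted p under 0.05 there, against 1.67% of genes, with 0% called. The pooled difference was -0.11 ± 0.04 (95% interval -0.20 to -0.02; unadjusted p 0.0244, adjusted p 0.992).

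In the hippocampus Egln3 varied widely between libraries. It ran from 0.0 to 2.834 FPKM in V, 0.0 to 3.149 in VH, 0.5488 to 2.361 in A and 1.194 to 3.271 in AH, and the pooled difference was 0.04 ± 0.31 (95% interval -0.61 to 0.69; adjusted p 0.984). Both values at 0, the highest value of V, VH and AH and the lowest of A were in libraries with few genes. In the fit without those libraries the difference was -0.16, with an adjusted p of 0.784.

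Egln1, the main hydroxylase acting on HIF in most cells, had the narrowest spread in the hemisphere. Its FPKM ran from 22.66 to 25.54 in V, 22.61 to 24.53 in VH, 23.31 to 24.88 in A and 23.36 to 24.91 in AH, and the pooled hydralazine difference of -0.01 ± 0.03 had a 95% interval of -0.06 to 0.05. In the hippocampus it ran from 14.38 to 29.92, 15.18 to 31.34, 15.55 to 24.38 and 19.85 to 31.48 FPKM in the same order, with a difference of 0.14 ± 0.12 (95% interval -0.10 to 0.37). The hippocampal interval was several times as wide as the hemispheric one.

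Egln2, a further hydroxylase of the family, showed no difference beyond its spread. In the hemisphere it ran from 30.66 to 44.6 FPKM in V, 32.76 to 40.83 in VH, 31.44 to 66.95 in A and 33.73 to 37.82 in AH, where 66.95 is A replicate 6; the pooled difference was -0.04 ± 0.09 (95% interval -0.23 to 0.14). In the hippocampus it ran from 26.3 to 36.7 FPKM in V, 28.42 to 85.6 in VH, 33.41 to 38.67 in A and 34.52 to 43.63 in AH, where 85.6 is VH replicate 3, the library with 1.212 M reads. The pooled hippocampal difference was 0.19 ± 0.12 (95% interval -0.07 to 0.45).

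The alpha subunits did not differ beyond their spread either. Hif1a ran in the hemisphere from 8.948 to 10.67 FPKM in V, 9.467 to 11.37 in VH, 3.007 to 10.69 in A and 8.706 to 10.63 in AH, and 3.007 is again A replicate 6, next to 9.173 for the lowest of its other libraries. The pooled difference was 0.14 ± 0.12 (95% interval -0.11 to 0.40), and 0.01 without that library. Hippocampal Hif1a ran from 4.695 to 9.815 FPKM in V, 7.24 to 19.71 in VH, 4.943 to 9.187 in A and 8.031 to 9.623 in AH, with a difference of 0.26 ± 0.14 (95% interval -0.04 to 0.56; limma, unadjusted p 0.0867, adjusted p 0.873). Without the libraries with few genes, which hold the lowest value of V and of A and the highest of VH, it was -0.01.

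Epas1, the alpha subunit abundant in brain endothelium, had pooled differences of 0.03 ± 0.05 in the hemisphere (95% interval -0.08 to 0.13) and 0.06 ± 0.07 in the hippocampus (95% interval -0.09 to 0.21). It ran from 26.15 to 31.31 FPKM in V, 26.84 to 34.25 in VH, 26.89 to 36.33 in A and 26.97 to 33.16 in AH of the hemisphere. The hippocampal values were 24.25 to 33.47, 22.44 to 28.24, 19.85 to 28.52 and 22.94 to 32.87 FPKM in the same order. These ranges overlapped throughout.

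Adm, the vasodilator peptide adrenomedullin, was the scarcest member. In the hemisphere it ran from 0.8165 to 1.944 FPKM in V, 0.6245 to 1.6 in VH, 0.7473 to 1.275 in A and 0.7529 to 2.027 in AH, a pooled difference of -0.06 ± 0.12 (95% interval -0.31 to 0.19). These levels rest on 14 to 70 reads per library in the 42 libraries with more genes. In the 6 hippocampal libraries with few genes Adm was listed at 0 reads in each, and in the other hippocampal libraries it ran from 0.52 to 1.456 FPKM. The pooled hippocampal difference was -0.01 ± 0.30 (95% interval -0.63 to 0.61), an interval that leaves the direction undetermined.

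Bnip3, a mitochondrial protein of mitophagy and cell death, ran in the hemisphere from 29.01 to 31.97 FPKM in V, 29.39 to 31.34 in VH, 17.13 to 31.8 in A and 26.96 to 31.18 in AH. A replicate 6 gave the 17.13, next to 29.02 for the lowest of the rest of A. The pooled difference was 0.005 ± 0.068 (95% interval -0.14 to 0.15) and -0.06 without that library. In the hippocampus Bnip3 ran from 17.84 to 24.51 FPKM in V, 13.07 to 23.41 in VH, 10.03 to 30.29 in A and 17.19 to 23.36 in AH, with a difference of -0.06 ± 0.13 (95% interval -0.33 to 0.21).

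Pdk1 encodes a kinase that inhibits pyruvate dehydrogenase. In the hemisphere it ran from 3.601 to 6.307 FPKM in V, 3.33 to 6.283 in VH, 4.06 to 5.963 in A and 4.366 to 6.006 in AH. The pooled difference was -0.01 ± 0.09 (95% interval -0.20 to 0.17). In the hippocampus it ran from 2.072 to 4.181, 0.0 to 3.502, 3.288 to 5.05 and 3.34 to 5.072 FPKM in the same order, with a difference of -0.28 ± 0.26 (95% interval -0.81 to 0.25). Pdk1 at 0 was VH replicate 3, the library of lowest depth. Leaving out each library in turn gave -0.34 to -0.04 in the hippocampus.

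Ankrd37, an ankyrin-repeat protein known as a HIF target, ran in the hemisphere from 2.075 to 3.51 FPKM in V, 2.026 to 4.173 in VH, 2.415 to 3.362 in A and 2.229 to 3.637 in AH, with a difference of -0.08 ± 0.10 (95% interval -0.27 to 0.12). In the hippocampus it ran from 0 to 3.678 FPKM in V, 0 to 13.08 in VH, 1.946 to 3.379 in A and 0 to 3.831 in AH. All 3 values at 0 and the 13.08 came from libraries with few genes. The hippocampal difference of 0.08 ± 0.45 had an interval of -0.84 to 1.004. In the 18 other hippocampal libraries Ankrd37 was 3.12 ± 0.406 FPKM in V (n = 4), 3.18 ± 0.206 in VH (n = 4), 2.97 ± 0.376 in A (n = 5) and 3.55 ± 0.233 in AH (n = 5), and the pooled difference was 0.13 with an adjusted p of 0.784 by limma.

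**Figure D3:**
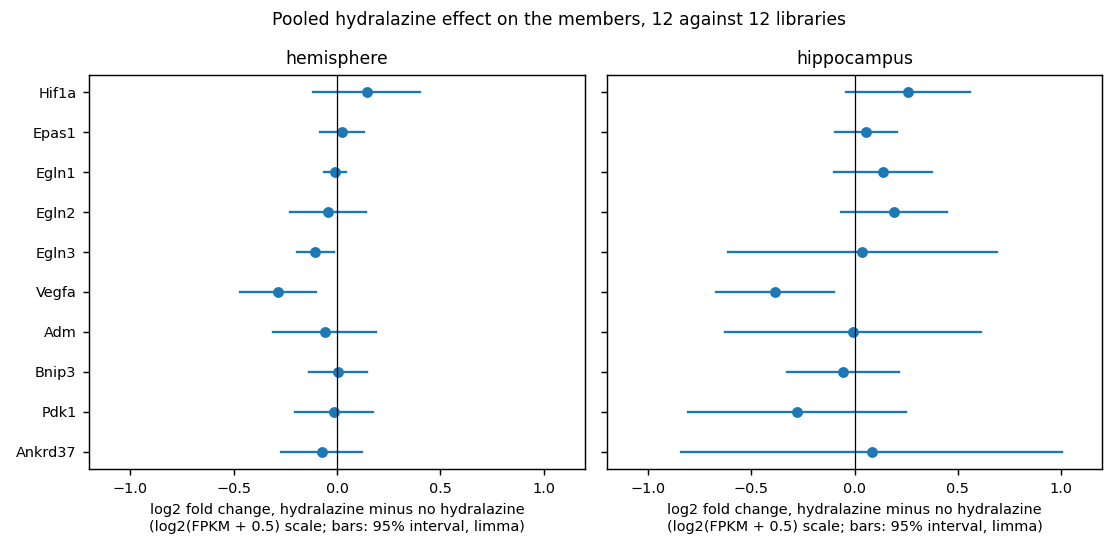
Pooled hydralazine effect on each member (log2 difference of VH and AH against V and A, with 95% intervals from limma), in the hemisphere on the left and the hippocampus on the right, 12 libraries against 12 in each. Vegfa lies at -0.29 and -0.39 with intervals below 0, Egln3 does so in the hemisphere alone, and the hippocampal intervals of Egln3, Adm, Pdk1 and Ankrd37 are the widest.

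Angiotensin II alone was also compared with vehicle. In the hemisphere 0 of 10 members were called, against 0.0717% of genes, and 0 of 10 had an unadjusted p under 0.05, against 9.24%. In the hippocampus 0 of 10 were called and 0 of 10 had an unadjusted p under 0.05, against 0% and 1.38%. Vegfa differed by -0.17 (95% interval -0.43 to 0.09) in the hemisphere and 0.03 (95% interval -0.37 to 0.44) in the hippocampus. Hydralazine alone against vehicle in the hippocampus likewise had 0 of 10 members called or with an unadjusted p under 0.05, against 0% and 5.64%. The interaction of the drugs gave 0 of 10 on both counts by limma, against 0% and 2.75% in the hemisphere and 0% and 2.4% in the hippocampus. For Vegfa it was -0.11 (95% interval -0.47 to 0.26) and -0.20 (95% interval -0.77 to 0.37).

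The other genes of the pathway were read from a list of 106 that adds beta subunits, the degradation machinery, coactivators, further targets and the receptors of the secreted targets. Under pooled hydralazine 0 of the 100 tested in the hemisphere and 0 of the 98 tested in the hippocampus were called by limma. Of them 5 in the hemisphere and 3 in the hippocampus had an unadjusted p under 0.05, against 2.46% and 3.56% of all genes. Since the list was chosen with earlier results of these data known, these counts do not test for an excess. The median log2 difference of the listed genes was -0.01 in the hemisphere, where that of all genes was 0.00. In the hippocampus it was -0.06, where that of all genes was -0.075. Of 25 glucose transport and glycolysis targets tested in the hemisphere, 22 had a negative and 3 a positive difference, with a median of -0.06 and 0 with an unadjusted p under 0.05. Over all genes, 8131 of 16747 differences were negative. Of 8 mitochondrial targets 7 were positive, with a median of 0.04 and 0 with an unadjusted p under 0.05. These counts of signs were not repeated without hemispheric A replicate 6.

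The 3 smallest p-values among these genes in the hemisphere belonged to secreted vascular factors, none of them called. Edn1, the vasoconstrictor endothelin, stood at 3.48 ± 1.5 FPKM with hydralazine and 1.285 ± 0.239 without (n = 12 each), a log2 difference of 1.04 ± 0.20 with an adjusted p of 0.365 by limma; 11 of 12 hydralazine libraries were above the median of the others, and the groups overlapped. Cxcl12, a chemokine, stood at 9.76 ± 0.771 against 8.36 ± 0.576 FPKM, a difference of 0.21 (adjusted p 0.756), and Apln, the vasoactive peptide apelin, at 10.8 ± 1.19 against 12.5 ± 1.49 FPKM, a difference of -0.19 (adjusted p 0.992). In the hippocampus the 3 were Ramp2, a subunit of the adrenomedullin receptor, at 17.0 against 13.7 FPKM (0.33), Mt1, a metallothionein, at 725.7 against 607.5 FPKM (0.31), and Slc16a3, a lactate transporter, at 0.335 against 0.556 FPKM (-0.37), each with an adjusted p of 0.873.

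With angiotensin II in the hemisphere, 0 of the 100 other pathway genes were called and 18 had an unadjusted p under 0.05, against 9.24% of all genes. For both drugs against vehicle there, 11 of 100 did, against 5.21%, and 0 were called. Among the feedback and further targets, 22 of 26 had a negative difference under angiotensin II, with a median of -0.11 where that of all genes was 0.00. Over all genes, 8385 of 16747 differences were negative. These counts were not repeated without hemispheric A replicate 6. Because the lists were chosen with earlier results of these data known, they do not test for an excess.

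More members were called between the regions than between treatments. Every hippocampal library also listed fewer genes above 0 (7805 to 23044) than every hemispheric library (23161 to 25610). The part of this in the regional differences was not tested. Comparing the hippocampus with the hemisphere over the 4 treatments (24 libraries each), 6 of 10 members were lower in the hippocampus and 0 higher. This count stands against 67.5% of the 17643 genes called and 47.2% called lower, so the share of members is near that of all genes. The median difference over all genes was -0.23 and that of the members -0.36. Under quantile scaling the median of all genes was 0.05, and the split of calls moved from 3572 higher and 8330 lower to 6686 higher and 5827 lower, with 7 members lower. The labels do not say whether both regions came from the same mice, and the fit treats all libraries as separate; deviations of libraries of the same treatment and number correlated between the regions by -0.207 to 0.041.

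Vegfa had the largest difference. It stood at 5.40 ± 1.60 FPKM in the hippocampus (3.336 to 10.92, median 5.043) and 18.8 ± 3.76 FPKM in the hemisphere (12.25 to 26.67, median 18.7), and the 2 sets did not overlap. The log2 difference was -1.73 ± 0.08 (95% interval -1.89 to -1.57; limma, adjusted p 2.54e-23), and all 24 hippocampal libraries lay below the hemispheric median. It was -1.67 under quantile scaling and -1.73 without the libraries with few genes. Of the choroid plexus markers 6 of 7 tested were lower in the hippocampus, and of the endothelial markers 6 of 8. Over all genes 47.2% were called lower, and 11590 of 17643 differences were negative. Summed choroid plexus markers had group medians of 445.6 to 635.1 FPKM in the hemisphere and 12.63 to 30.25 in the hippocampus. For summed endothelial markers these medians were 122.7 to 144.9 FPKM in the hemisphere and 121.2 to 146.4 in the hippocampus. In hippocampal VH, 4 of the 8 endothelial markers were above 0 in every library. The part of either list in the Vegfa difference was not tested.

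Egln3 was next, at 1.81 ± 0.825 FPKM in the hippocampus (0.0 to 3.271) and 3.89 ± 0.341 in the hemisphere (3.259 to 4.494), a difference of -1.06 ± 0.16 (limma, adjusted p 1.53e-07). All 24 hippocampal libraries lay below the hemispheric median, and 1, AH replicate 5, reached the lowest hemispheric library. Without the libraries with few genes the hippocampal range was 1.194 to 2.728 FPKM, below every hemispheric library, and the difference was -0.90; under quantile scaling it was -0.69. Both sets of values keep Egln3 below the median of all genes.

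Bnip3 stood at 20.2 ± 4.03 FPKM in the hippocampus and 29.2 ± 2.93 in the hemisphere, a difference of -0.54 ± 0.07 (limma, adjusted p 2.03e-08), with 23 of 24 hippocampal libraries below the hemispheric median. The exception was A replicate 6, at 30.29 FPKM. Pdk1 stood at 3.47 ± 0.973 and 5.08 ± 0.831 FPKM, a difference of -0.56 ± 0.14 (adjusted p 0.00036), with 24 of 24 below the median and overlapping ranges. Epas1 stood at 27.0 ± 3.01 and 30.4 ± 2.59 FPKM, a difference of -0.17 ± 0.04 (adjusted p 0.000659), with 22 of 24 below. That is smaller than the shift of all genes in the same fit, although Epas1 was -0.30 under quantile scaling, where that shift was 0.05.

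The call for Adm rested on the libraries with few genes. It stood at 0.719 ± 0.482 FPKM in the hippocampus and 1.14 ± 0.365 in the hemisphere, a difference of -0.54 ± 0.16 (limma, adjusted p 0.00344). Without those 6 libraries, where it was listed at 0, the hippocampal level was 0.959 ± 0.267 FPKM (n = 18), the difference was -0.16 and the adjusted p was 0.113. Under quantile scaling the difference was -0.01 (adjusted p 0.961).

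The remaining 4 members were not called. Hif1a differed by -0.15 ± 0.10 (95% interval -0.35 to 0.04; limma, adjusted p 0.157); without hemispheric A replicate 6 it was -0.22 with an adjusted p of 0.0105. Egln1 differed by -0.10 ± 0.06 (95% interval -0.21 to 0.02; adjusted p 0.143), and was called lower under quantile scaling (-0.18, adjusted p 0.00607) and without the libraries with few genes (-0.08, adjusted p 0.00119). Ankrd37 differed by -0.17 ± 0.23 (95% interval -0.64 to 0.30; adjusted p 0.541), and without the libraries with few genes by 0.15 in the other direction (adjusted p 0.0334). Egln2 differed by 0.01 ± 0.08 (95% interval -0.15 to 0.17; adjusted p 0.937), and was -0.16 under quantile scaling (adjusted p 0.0497).

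**Figure D4:**
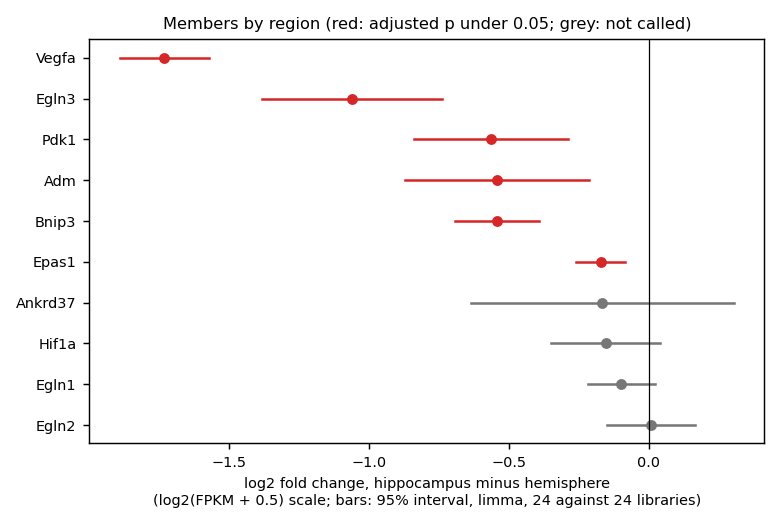
Log2 difference of the hippocampus from the hemisphere for each member with 95% intervals from limma, 24 libraries against 24; red marks an adjusted p under 0.05. Vegfa at -1.73 and Egln3 at -1.06 lie farthest to the left, and Egln2 at 0.01 is on the line of no difference.

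Of the other pathway genes 68 of 101 tested were called between the regions, 29 higher and 39 lower in the hippocampus, and 38 higher and 35 lower under quantile scaling. This stands against 67.5% of all genes called, 3572 of them higher and 8330 lower. By role, 6 of 12 genes of oxygen sensing and degradation were higher and 1 lower, and 8 and 1 under quantile scaling. Of 3 further subunits 0 were higher and 2 lower, and 1 and 2 under quantile scaling. Of 12 vascular targets 2 were higher and 4 lower, a balance that turned to 6 higher and 2 lower under quantile scaling. Of 25 glucose targets 7 were higher and 11 lower, and 5 and 15 under quantile scaling, and of 8 mitochondrial targets 4 and 2, and then 2 and 2. Of 27 feedback and further targets 4 were higher and 13 lower, and 9 and 9 under quantile scaling. Of 9 receptors 4 were higher and 3 lower, and then 5 and 2, and of 5 coactivators 2 and 3, and then 2 and 2.

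The smallest p-value among them was that of Arnt2, the beta subunit prominent in neurons, at 14.9 ± 2.79 FPKM in the hippocampus (highest 22.64) and 33.3 ± 2.18 in the hemisphere (lowest 26.94), without overlap, a log2 difference of -1.16 (limma, adjusted p 1.45e-22). Ramp2 stood at 15.3 ± 3.37 and 5.26 ± 1.15 FPKM, a difference of 1.44. Mt1 stood at 666.6 and 250 FPKM (1.41), and Fam162a, a mitochondrial protein induced by hypoxia, at 86.4 and 37.9 FPKM (1.14). Aldoa, the glycolytic aldolase, was at 1052 and 623.7 FPKM, a difference of 0.75 that turned to -0.16 under quantile scaling; Arnt2, Ramp2, Mt1 and Fam162a kept their direction there, at -1.22, 1.60, 0.80 and 0.86.

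The genes most like each member were found in the 24 hemispheric libraries by Pearson correlation of log2(FPKM + 0.5) after subtraction of the group means. These values describe libraries that also differ in depth (15.772 to 23.504 M reads), and carry no p. The part of depth in them was not tested. Vegfa was closest to Abhd2 (0.767), Apold1 (0.754) and Elmsan1 (0.752), and without A replicate 6 to Gbgt1 (0.765), Abhd2 (0.725) and Primpol (0.721). Egln1 was closest to Rassf2 (0.864), Hif1an (0.850) and Irf9 (0.842); Hif1an encodes the asparaginyl hydroxylase that also acts on the HIF alpha subunit. Without A replicate 6 the 3 closest to Egln1 were Katnal1 (0.873), Rassf2 (0.867) and Zhx3 (0.867), and Hif1an was not among them. With all 24 libraries Epas1 was closest to Acta2 (0.871), Lcat (0.846) and Gprc5b (0.846), Adm to Syde1 (0.795), Sparc (0.777) and Nfam1 (0.757), and Egln3 to Tcp11l2 (0.723), Cdk5rap1 (0.647) and Hsd17b4 (0.644). Ankrd37 was closest to Mrps10 (0.708), Mrpl40 (0.701) and Cnrip1 (0.682), and Pdk1 to Tnr (0.958), Ttpal (0.944) and Setd2 (0.940). Without A replicate 6 the closest was Rcan2 (0.872) for Epas1, Syde1 (0.842) for Adm, Tcp11l2 (0.724) for Egln3 and Trim37 (0.956) for Pdk1.

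For Hif1a and Bnip3 the highest correlations were lower without A replicate 6. With all 24 libraries Hif1a was closest to Trim23 (0.980), Frmpd4 (0.979) and Purb (0.976), Bnip3 to Mzt1 (0.959), Cav2 (0.958) and Pcnp (0.957), and Egln2 to Ndufs7 (0.965), Cope (0.964) and Mif (0.962). Without that library the highest value was 0.751 for Hif1a (Mphosph6) and 0.710 for Bnip3 (Ttc38), while Egln2 had 0.937 (Eif1). Among the members themselves Hif1a and Bnip3 had a correlation of 0.927 with all 24 libraries and 0.129 without A replicate 6, and Hif1a and Egln2 had -0.858 and -0.213, so both rested on that library. Egln2 and Pdk1 had -0.700, and -0.814 without A replicate 6; Epas1 and Adm had 0.548 and 0.605, and Egln1 and Vegfa 0.563 and 0.525.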

How the data were processed

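The authors deposited a table of FPKM for 54532 genes in 48 libraries. Per the labels' protocols RNA was extracted on columns and a sequencing company made the libraries. The submitters' processing notes name GRCm38, mm10 and DESeq 1.10.1; how reads were aligned and counted, and with which strand setting, is not given in the sources used here. Values of Adm, Ankrd37, Bnip3, Egln2 and Hif1a are therefore uncertain to the extent of genes that overlap them on the other strand, and Hif1a and Epas1 also overlap an annotated gene on their own strand. Coordinates are GRCm38. FPKM times gene length gave whole reads (tolerance 0.1) for at least 99.99% of values in each library; these reads describe depth only.

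Values were analysed as log2(FPKM + 0.5), which understates changes of low genes. A gene was tested if 6 or more libraries of a fit reached 0.5 FPKM, by limma 3.58.1 under R 4.3.3 (trend and robust prior, 1 mean per group, two-sided, Benjamini-Hochberg over all genes tested, called at an adjusted p under 0.05). Each region was fitted with its 24 libraries, and the regions were compared with 48. The members and lists were chosen with earlier results of these data known. All members are named; differences other than the pooled hydralazine and regional ones are given for members with an unadjusted p under 0.05, with Vegfa also given elsewhere, and other pathway genes by smallest p. Alternatives were pseudocounts 0.1 and 1, scaling by median of ratios or quantiles, a filter at 0.1 FPKM or no filter, no trend or robust prior, library weights, a replicate block, each library left out, and fits without the 6 libraries with few genes or without both A replicates 6. A choroid plexus covariate was chosen after seeing the data. The fit was also run on simulated data with independent noise for each gene. Those data held no outlying library such as A replicate 6, and their outcome is not given here.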

Additional observations from a re-analysis of the deposited data

Results flagged for a closer look

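In groups of 6 libraries a value was singled out where its gap to the nearest library, over the range of the group, passed Dixon's 95% limit. This held for 17 values among 80 groups (10 members in 8 groups), where chance gives about 1 in 20. Of these, 11 were in the hippocampal libraries with few genes and 3 in hemispheric A replicate 6.

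AH replicate 5 of the hippocampus had 31.48 FPKM of Egln1, 3.271 of Egln3, 5.072 of Pdk1 and 0 of Ankrd37, the first 3 above and the last below the rest of its group. VH replicate 3, the library with 1.212 M reads, had 19.71 FPKM of Hif1a, 85.6 of Egln2 and 0 of Pdk1. A replicate 3 had 4.943 FPKM of Hif1a and 15.55 of Egln1, both the lowest of their group. V replicate 3 had Ankrd37 at 0, and VH replicate 4 had it at 13.08 FPKM, from 317 reads, where the 42 libraries with more genes had 67 to 131.

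Hemispheric A replicate 6 had 3.007 FPKM of Hif1a, 17.13 of Bnip3 and 66.95 of Egln2, away from the next libraries of its group at 9.173, 29.02 and 36.32 FPKM. Hippocampal A replicate 6 had 10.92 FPKM of Vegfa, where the next library had 6.69. In the hemisphere AH replicate 6 had 2.027 FPKM of Adm, and VH replicate 3 had 31.34 of Bnip3, a distance from 29.83 that is small beside the level. No cause was tested for these values.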

How the results depend on the processing

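No member was called for any treatment comparison under any alternative, with 1 exception: Vegfa for both drugs against vehicle in the hemisphere with library weights (1 member; difference -0.55, adjusted p 0.0362). Vegfa stayed negative in every alternative for the pooled effect, from -0.32 to -0.26 in the hemisphere and -0.49 to -0.31 in the hippocampus. Between regions 6 to 9 members were called.

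Some signs turned, with the cause not tested. In the hemisphere pooled hydralazine gave Egln1 0.0025 (quantile scaling), Egln2 0.036 (weights) and 0.040 (without A replicates 6), and Bnip3 -0.058 and -0.062; leaving out single libraries gave -0.068 to 0.040 for Egln2, -0.062 to 0.025 for Bnip3 and -0.051 to 0.036 for Pdk1. In the hippocampus it gave Hif1a -0.0055 (libraries with few genes left out), Adm 0.10 (quantile scaling) and 0.16 (choroid plexus covariate), Egln3 -0.18 (weights) and -0.16 (few genes left out), Ankrd37 -0.064 (pseudocount 0.1), Egln2 -0.014 (weights) and Bnip3 0.0098 (without A replicates 6). Leaving out single libraries there gave -0.13 to 0.11 for Adm, -0.16 to 0.23 for Egln3, -0.15 to 0.35 for Ankrd37 and -0.14 to 0.0098 for Bnip3. Between regions Ankrd37 was 0.22 (quantile scaling), 0.15 (weights, adjusted p 0.0336) and 0.15 (few genes left out), and Egln2 -0.16 (quantile scaling) and -0.046 to 0.048 (single libraries left out).

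With a replicate block 0 members were called between treatments and 6 between regions, with Vegfa at -0.29 and -0.39 under hydralazine. Deviations of libraries sharing a number correlated by -0.21 to 0.47 in the hemisphere and -0.20 to 0.26 in the hippocampus, and 6 and 8 of 24 libraries correlated best with their own number, so the number was not taken as a pairing. The hippocampal values of Adm, Ankrd37 and Egln3 are limited by the 6 libraries with few genes, of which 1 was shallow (1.212 M reads, M for 1000000); in the 42 libraries with more genes, of both regions, Adm rests on 14 to 70 reads each.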
